A study of Mus musculus with 3 samples.

Results

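The zinc finger gene cluster of distal mouse chromosome 4 was taken as a window of 3000001 bp of GRCm38 (mm10), and every TH2B and TH2A peak in it, from the first at 145447661 to the end of the last at 147809778, was described against 7 listed genes, Zfp600, Zfp978, Zfp982, Zfp985, Zfp987, Zfp990 and Gm16503, and against their neighbours. The window held 19 of the 1179 TH2B peaks and 18 of the 210 TH2A peaks. The window was chosen because peaks were seen there, so these counts are a description. TH2B and TH2A are testis-specific variants of the core histones H2B and H2A, and the lists give the positions where nucleosomes carrying them were called in mature caudal sperm of BALB/c-129-E mice aged 8 to 12 weeks. Native chromatin was digested with micrococcal nuclease, and mononucleosomal DNA was immunoprecipitated with a rabbit antibody against TH2B or with one against TH2A, or was kept as Input without antibody. The 2 ChIP reactions of a variant were pooled, which leaves 1 library per variant and no replicate. Reads were paired and 150 bp long. Pairs that the paper calls unique numbered about 34000000 for TH2A and 30000000 for each of the other libraries. The lists give no height or enrichment, so the depth behind a peak is unknown and differences between the variants are described without a test.

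C2H2 zinc finger proteins bind DNA through arrays of short finger modules, and many of them also carry a KRAB domain, which recruits corepressors and a silent chromatin state. KRAB zinc finger genes lie in clusters that grew by repeated duplication of DNA, and members of the distal chromosome 4 cluster are known to repress retrotransposons in embryonic cells. All listed genes but Gm16503 carry names of the Zfp series. Rex2 and Gm13212 are further members of the same cluster.

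Most peaks lay on sequence that the window holds more than once. There were 8 peaks that fell on copies of 1 sequence that also spans the annotated starts of most zinc finger genes there, called the start element here. The first line is the whole TH2B peak 14, in an intron of Zfp988 (peaks are numbered along the chromosome within each list). The next 2 lines are copies with no peak of either list, and the last line is the copy of TH2B peak 2, between Zfp990 and Gm13212. Capitals mark bases that differ from the first line in a pairwise alignment. All are from the plus strand of GRCm38, 5′ to 3′.
TH2B peak 14 in Zfp988, chr4:147310575-147310779: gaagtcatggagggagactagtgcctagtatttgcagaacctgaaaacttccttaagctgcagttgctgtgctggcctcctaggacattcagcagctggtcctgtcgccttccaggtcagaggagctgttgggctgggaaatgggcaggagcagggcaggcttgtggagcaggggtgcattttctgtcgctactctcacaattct
copy in the gene Gm13147, no peak, chr4:147234356-147234560: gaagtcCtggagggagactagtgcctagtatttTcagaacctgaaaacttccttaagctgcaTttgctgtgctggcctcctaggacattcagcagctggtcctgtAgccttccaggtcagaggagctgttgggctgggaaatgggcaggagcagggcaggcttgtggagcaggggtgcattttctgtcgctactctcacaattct
copy in Zfp987, no peak, chr4:146101668-146101872: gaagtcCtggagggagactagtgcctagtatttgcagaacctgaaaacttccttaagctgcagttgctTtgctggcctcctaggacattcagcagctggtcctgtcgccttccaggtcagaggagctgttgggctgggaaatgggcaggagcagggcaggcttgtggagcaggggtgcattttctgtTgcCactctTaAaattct
copy at TH2B peak 2, chr4:145564682-145564884: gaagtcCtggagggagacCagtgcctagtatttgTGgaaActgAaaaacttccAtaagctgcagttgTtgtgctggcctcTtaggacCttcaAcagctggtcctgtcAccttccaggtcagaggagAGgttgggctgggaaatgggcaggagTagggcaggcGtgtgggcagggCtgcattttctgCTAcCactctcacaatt
The copy in Gm13147 differed from the Zfp988 peak at 4 bases and the copy in Zfp987 at 6, yet neither was listed as a peak. The copy at TH2B peak 2 has 21 marked bases, and a base that is missing from it is not marked. It aligned with 89.2% identity over 203 bases, short of the end of the Zfp988 peak. The stretch printed covers only part of TH2B peak 2, which runs from 145564708 to 145564913.

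The TH2A peak at the start of Zfp985 also lay on the start element, and its 87 bases before the annotated start are shown because they are promoter sequence that a peak of this cluster covered.
before the start of Zfp985, chr4:147553190-147553276: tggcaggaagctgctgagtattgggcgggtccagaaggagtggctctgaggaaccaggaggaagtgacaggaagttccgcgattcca
Peaks of the lists met at 3 places in the window, and 1 of the shared stretches is shown, from introns of the long noncoding RNAs C230088H06Rik and Gm26624.
shared by TH2A peak 12 and TH2B peak 18, chr4:147401825-147402063: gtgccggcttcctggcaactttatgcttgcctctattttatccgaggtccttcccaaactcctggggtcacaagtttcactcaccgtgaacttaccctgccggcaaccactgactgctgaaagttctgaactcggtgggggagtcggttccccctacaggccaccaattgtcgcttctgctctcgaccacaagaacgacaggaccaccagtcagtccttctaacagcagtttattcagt
The shared stretch in Zfp990 touches a UTR and is given by its position only.

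The window took a larger share of the TH2A list than of the TH2B list. It held 8.57% of the TH2A peaks (95% Wilson interval 5.49 to 13.1%) and 1.61% of the TH2B peaks (1.03 to 2.5%). These intervals cover counting error only, and not the choice of the window for its peaks. On all of chromosome 4 there were 28 TH2A peaks and 87 TH2B peaks, so 10 TH2A peaks and 68 TH2B peaks lay outside the window. The window has 2568130 sequenced bases, 1.69% of those of chromosome 4, and a further 431871 bases (14.4% of its length) are unsequenced in the reference. Per sequenced Mb it held 7.01 TH2A peaks, against 0.0669 on the rest of chromosome 4 and 0.0624 on the rest of the assembled nuclear chromosomes. For TH2B the values were 7.4 in the window, 0.455 on the rest of chromosome 4 and 0.424 on the other assembled sequence. Thus the lists were about equally dense in the window and far apart in density elsewhere. Extending the window by 500 kb on each side added no TH2A peak and raised the TH2B count to 21.

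**Figure D1:**
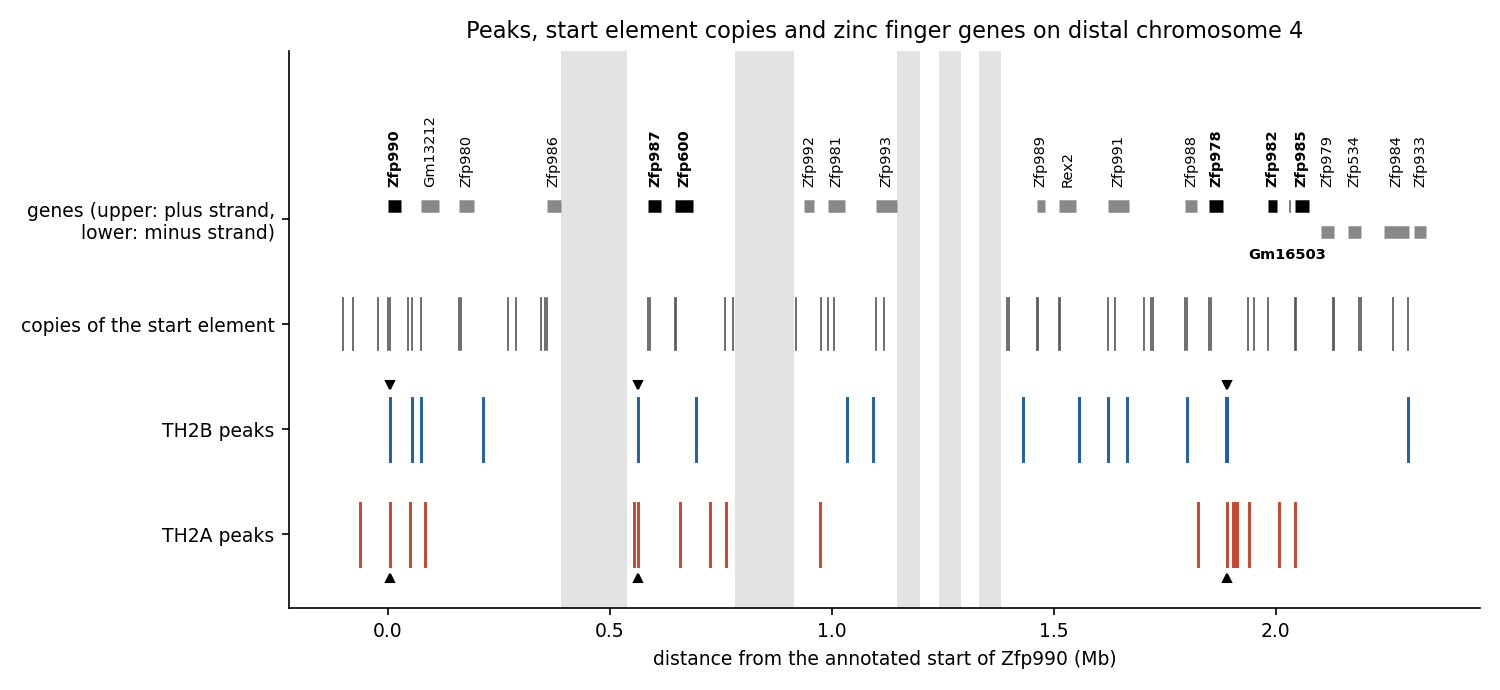
Positions of the zinc finger genes and Gm16503 (bars, to scale, listed genes in black), of the 53 copies of the start element, and of the 19 TH2B (blue) and 18 TH2A (red) peaks, against the distance in Mb from the annotated start of Zfp990. Grey bands are runs of unsequenced bases, black triangles mark the 3 places where peaks of both lists overlap, and peaks of both lists spread over most of the cluster.

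The annotation placed 105 genes in the window, with 31 protein-coding genes and 61 pseudogenes among them. Of the protein-coding genes, 20 were zinc finger genes by their symbol or by holding at least 3 C2H2 fingers, and these encoded 2 to 20 fingers with a median of 11.5. Among the listed genes Zfp600 encoded 17 fingers, Zfp987 14, Zfp990 13, Zfp985 10, Zfp982 7 and Zfp978 3. Gm16503 encoded a protein of 103 residues with 0 fingers, so it is a neighbour within the cluster and no zinc finger gene by this rule. All 19 TH2B peaks and 17 of the 18 TH2A peaks lay between the first and the last zinc finger gene. The exception was TH2A peak 1, which lay 62898 bp before Zfp990 in introns of the noncoding transcript Platr16 and the pseudogene Gm13230. The other 11 protein-coding genes of the window include the retroviral restriction gene Fv1, the mitochondrial fusion gene Mfn2 and the natriuretic peptide gene Nppb. None of the 11 had a peak of either list in the gene or within 5 kb (0 of 11, which allows a share of up to 27.3%).

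Peaks were thus counted in or within 5 kb of each zinc finger gene. TH2B peaks were found at 5 of the 20 (25%, 95% Wilson interval 11.2 to 46.9%) and TH2A peaks at 6 (30%, 14.5 to 51.9%). As background, 4.02% of the 622 C2H2 zinc finger genes elsewhere in the genome had a TH2B peak in or within 5 kb, and 4.19% of 21907 protein-coding genes outside the window. The 622 genes were taken by at least 3 fingers only, while the 20 include Zfp993, taken by its symbol, with 2 fingers. For TH2A the background was 0% of the 622 C2H2 genes (0 of 622, which allows up to 0.482%) and 0.123% of protein-coding genes. The cluster was chosen for its peaks, and nothing is read from these differences. In total 8 of the 20 genes had a peak of either list in or within 5 kb, 7 had one in the gene, and Zfp990 and Gm13212 had peaks of both lists in the gene. Among the 7 listed genes, 1 had a TH2B peak in or within 5 kb and 4 had a TH2A peak.

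Zfp990 was the listed gene at which the lists met. It lies on the plus strand from 145510759 to 145539188. TH2B peak 1 (145514928 to 145515132) and TH2A peak 2 (145514922 to 145515126) were each 205 bp wide and shared 199 bp, 97.1% of either peak. Their centres lay 4271 and 4265 bp downstream of the start of the gene, but 146 and 140 bp downstream of the start of another annotated transcript of Zfp990, and both touched an exon. Zfp990 was the only listed gene with a TH2B peak in it by this annotation.

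Zfp985 and Zfp600 each had a TH2A peak and no TH2B peak. TH2A peak 18 (147553190 to 147553506, 317 bp) covered the annotated start of Zfp985, with its centre 71 bp downstream of that start and 9 bp from the nearest annotated transcription start site (TSS). The nearest TH2B peak to it was 151126 bp away. Zfp600, the listed gene with the most fingers, had TH2A peak 7 (146169206 to 146169438) in an intron 12498 bp downstream of its start, which also lies in introns of the noncoding genes Gm26573 and Gm13165. The nearest TH2B peak to Zfp600 was TH2B peak 6, 5814 bp past the end of the gene. These genes therefore differ in where the TH2A peak sat, at the start of Zfp985 and deep within Zfp600.

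Zfp982, Zfp978, Zfp987 and Gm16503 had no peak inside the annotated gene. The nearest to Zfp982 was TH2A peak 17 (147518395 to 147518603), 4908 bp past its end. The nearest to Zfp978 were TH2B peak 15, 7909 bp past its end, and TH2A peak 12, 10820 bp past it. Zfp987 had TH2B peak 5 and TH2A peak 6 before it, at 23404 and 23675 bp. Gm16503 had TH2A peak 18 at 9689 bp and no TH2B peak nearer than 138154 bp. Gene models mattered here. RefSeq draws Zfp978 from 147124882 to 147392027 and Zfp982 from 147443114 to 147516064, much longer than GENCODE. With the RefSeq models 4 TH2B peaks in place of 1 and 5 TH2A peaks in place of 3 lay inside a listed gene. However, the RefSeq span of Zfp978 takes in the neighbours Zfp991 and Zfp988. It thereby counts TH2B peaks 12, 13 and 14, which lie in those neighbours, and TH2A peak 11. The RefSeq span of Zfp982 takes in TH2A peak 16 (147450848 to 147451115).

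Among the 14 zinc finger genes that were not listed, 4 had a peak in the gene. TH2B peak 3 (145585257 to 145585622) lay just downstream of the start of Gm13212, the gene with the most fingers of the cluster, with its centre 236.5 bp from the nearest TSS, and TH2A peak 4 lay in an intron of that gene, 9248 bp further on. TH2B peak 12 (147132049 to 147132248) lay 110.5 bp downstream of the start of Zfp991, and TH2B peak 13 lay in an intron of the same gene, 44532.5 bp downstream of its start. TH2B peak 19 (147809380 to 147809778) lay 209 bp downstream of the start of Zfp984 and also touched an exon of the noncoding gene Gm20707. TH2B peak 14, whose sequence is printed above, lay 5003 bp downstream of the start of Zfp988, and TH2A peak 11 (147335883 to 147336227), at 345 bp the widest TH2A peak of the window, lay 2148 bp past the end of that gene. All in all, 4 TH2B peaks and 2 TH2A peaks had their centre within 1 kb of a protein-coding TSS, 21.1 and 11.1% of the peaks of the window. The background outside the window was 38.4% of TH2B and 6.67% of TH2A peaks.

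Most of the window's peaks lay in no zinc finger gene. With TSSs of all annotated transcripts, noncoding ones and pseudogenes included, 12 of 19 TH2B peaks (63.2%, 41 to 80.9%) and 11 of 18 TH2A peaks (61.1%, 38.6 to 79.7%) had their centre within 5 kb of a TSS, where the background was 68.8 and 52.7%. With TSSs of protein-coding transcripts only, 4 and 3 did. Many of these starts belonged to pseudogenes or antisense RNAs, such as 4933438K21Rik, whose start lay 62.5 bp from the centre of TH2B peak 11. Long noncoding genes that run across the cluster hosted many peaks in their introns. C230088H06Rik overlapped 9 TH2B and 6 TH2A peaks, Gm26624 overlapped 6 of each, and Gm26573 overlapped 4 of each. Relative to the nearest zinc finger gene, 6 TH2B peaks lay inside it, 4 before it and 9 past its end, and of the TH2A peaks 4 lay inside, 4 before and 10 past the end. TH2B peak 2, TH2B peak 4, TH2A peak 3, TH2A peak 5 and TH2A peak 17 overlapped no annotated gene.

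Overlap between the lists was limited to 3 pairs. These were 3 of 19 TH2B peaks (15.8%, 5.52 to 37.6%) and 3 of 18 TH2A peaks (16.7%, 5.84 to 39.2%). Outside the window 5.52% of 1160 TH2B and 33.3% of 192 TH2A peaks overlapped a peak of the other list. These backgrounds include peaks that are not on assembled nuclear chromosomes. The window was chosen for its peaks, and nothing is read from the differences. Beside the pair in Zfp990, TH2A peak 6 lay wholly within TH2B peak 5, which at 583 bp was the widest TH2B peak of the window. The third pair, TH2A peak 12 (147401825 to 147402075) and TH2B peak 18 (147401824 to 147402063), shared 239 bp. Both of its peaks had 905 further copies of at least 80% identity in the genome, of which only 2 were in the window. TH2B peaks 16 and 17 lay just before this pair, 888 and 377 bp from TH2A peak 12, and had no copy in the window but 16 and 14 elsewhere. TH2B peaks 16, 17 and 18 matched the transcript of D10Wsu102e with 94, 94.9 and 87.7% identity, and TH2A peak 12 with 87.7%. It was the only gene these peaks matched. TH2B peaks 6, 10 and 15 matched it with 80.7, 80.9 and 81%, but they matched transcripts of 4, 6 and 6 genes. Their closest matches were other genes, Vmn1r85 (82.7%), E430018J23Rik (82.3%) and Vmn1r85 (83.1%). The 16 TH2B and 15 TH2A peaks that overlapped no peak of the other list lay a median of 89777.5 and 31469 bp from the nearest one.

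Sequence that occurs more than once underlay most peaks of the window. A copy was a place elsewhere in the reference that matched at least 80% of the peak. At 80% identity or more, 17 of 19 TH2B peaks (89.5%, 68.6 to 97.1%) and 16 of 18 TH2A peaks (88.9%, 67.2 to 96.9%) had a copy within the window itself, and 10 of the 37 had copies there and nowhere else. The exceptions were TH2B peaks 16 and 17 and TH2A peaks 14 and 15, whose copies were all elsewhere. No share at 80% identity was computed for peaks outside the window, or for sequence of this duplicated cluster that lies off the peaks. These shares therefore do not set the peaks apart from the sequence around them. At 95% identity or more, here called near-identical, 14 TH2B peaks (73.7%, 51.2 to 88.2%) and 9 TH2A peaks (50%, 29 to 71%) had a copy. The background outside the window was 23.9% of TH2B and 69.7% of TH2A peaks. Many peaks of the window match each other, and sequence of the cluster off the peaks was not searched at this identity either. The window was also chosen for its peaks, so nothing is read from these differences. At 90% identity or more, 18 TH2B and 17 TH2A peaks of the window had a copy, and no background was computed at that setting. Peaks without a near-identical copy were TH2B peaks 2, 3, 9, 18 and 19 and TH2A peaks 1, 3, 5, 11, 12, 13, 14, 15 and 18.

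Exact repetition over the length of a read bears on where reads could be placed. In 8 of 19 TH2B peaks (42.1%) and 2 of 18 TH2A peaks (11.1%) at least 1 stretch of 150 bases had an exact copy elsewhere, against 15.1% of TH2B and 55.8% of TH2A peaks outside the window. In the Zfp990 pair 69.6% of the 150-base stretches of the TH2B peak and 80.4% of those of the TH2A peak had such a copy, and in the Zfp988 peak 87.5% did. In TH2B peaks 4, 8 and 12 every stretch did. TH2B peak 12, just past the start of Zfp991, was identical over its full 200 bp to a stretch just past the start of Zfp993 (146610988 to 146611187) and to 2 places outside the zinc finger genes, and none of those 3 held a peak. TH2B peak 4 had 2 exact copies, 20187 bp past the end of Zfp600 and 19993 bp past the end of Zfp981, and TH2B peak 8 had 1, past Zfp980, again with no peak on any of them. How the authors placed reads that match several positions is not given in the sources used here, and its part in these positions was not tested.

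**Figure D2:**
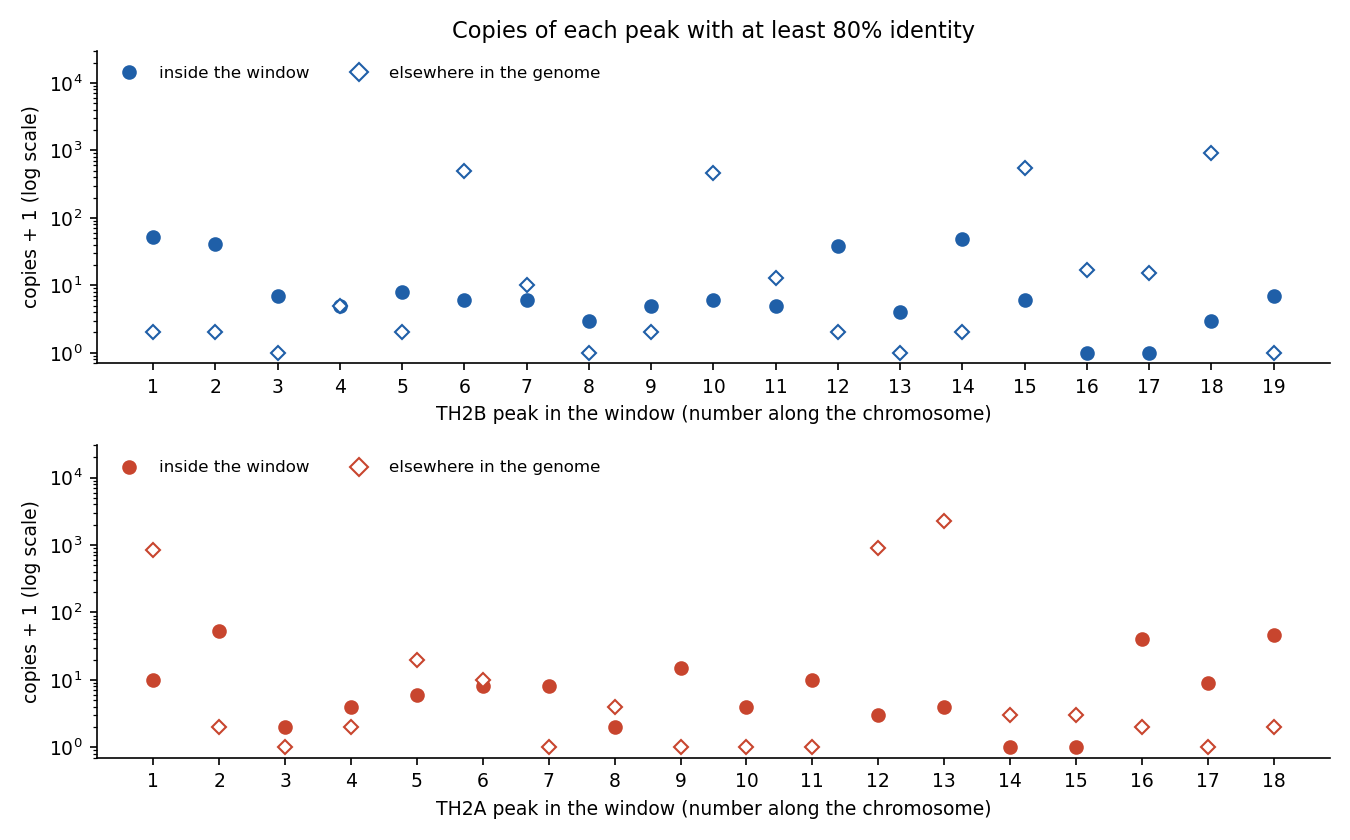
Number of copies with at least 80% identity of each TH2B (upper) and TH2A (lower) peak of the window, plus 1, on a log axis, inside the window (filled circles) and elsewhere in the genome (open diamonds). Peaks on the start element, such as TH2B peaks 1 and 14 with 51 and 47 copies inside the window, have nearly all their copies there, while TH2B peak 18 and TH2A peaks 12 and 13 have 905 to 2309, nearly all outside it.

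Peaks were grouped when they matched each other, directly or through another peak, over at least 100 bases with at least 80% identity. The largest group was that of the start element, with 8 peaks at 7 places: TH2B peaks 1, 2, 3, 12, 14 and 19 and TH2A peaks 2 and 18. Thus 6 of the 19 TH2B peaks and 2 of the 18 TH2A peaks of the window lay on it. The element had 53 copies in the window, of 171 to 686 bp with a median of 342 bp, and 1 copy elsewhere, on a sequence that is not part of an assembled chromosome. Of the 53 copies, 7 carried a peak and 46 did not. It spanned the annotated start of 18 of the 20 zinc finger genes, all but Zfp992 and Zfp933, and at 4 of these the copy carried a peak: a TH2B peak at Gm13212, Zfp991 and Zfp984 and a TH2A peak at Zfp985. The other listed zinc finger genes, Zfp600, Zfp978, Zfp982, Zfp987 and Zfp990, had the same element at the start with no peak on it. In 15 genes a further copy lay inside the gene, and 2 of these carried a peak, those of Zfp990 and Zfp988, 4199.5 and 4955 bp downstream of the gene start. The inner copies of Zfp600 (3391.5 bp), Zfp978 (3360.5 bp), Zfp985 (3898 bp) and Zfp987 (4424 bp) had none. These were 87.8, 88.3, 90.2 and 97.1% identical to the peak in Zfp990, and the inner copy of Zfp988 was 99.5% identical. Inner copies of Zfp981 and Zfp984, at 97.6 and 96.6%, also had none.

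**Figure D3:**
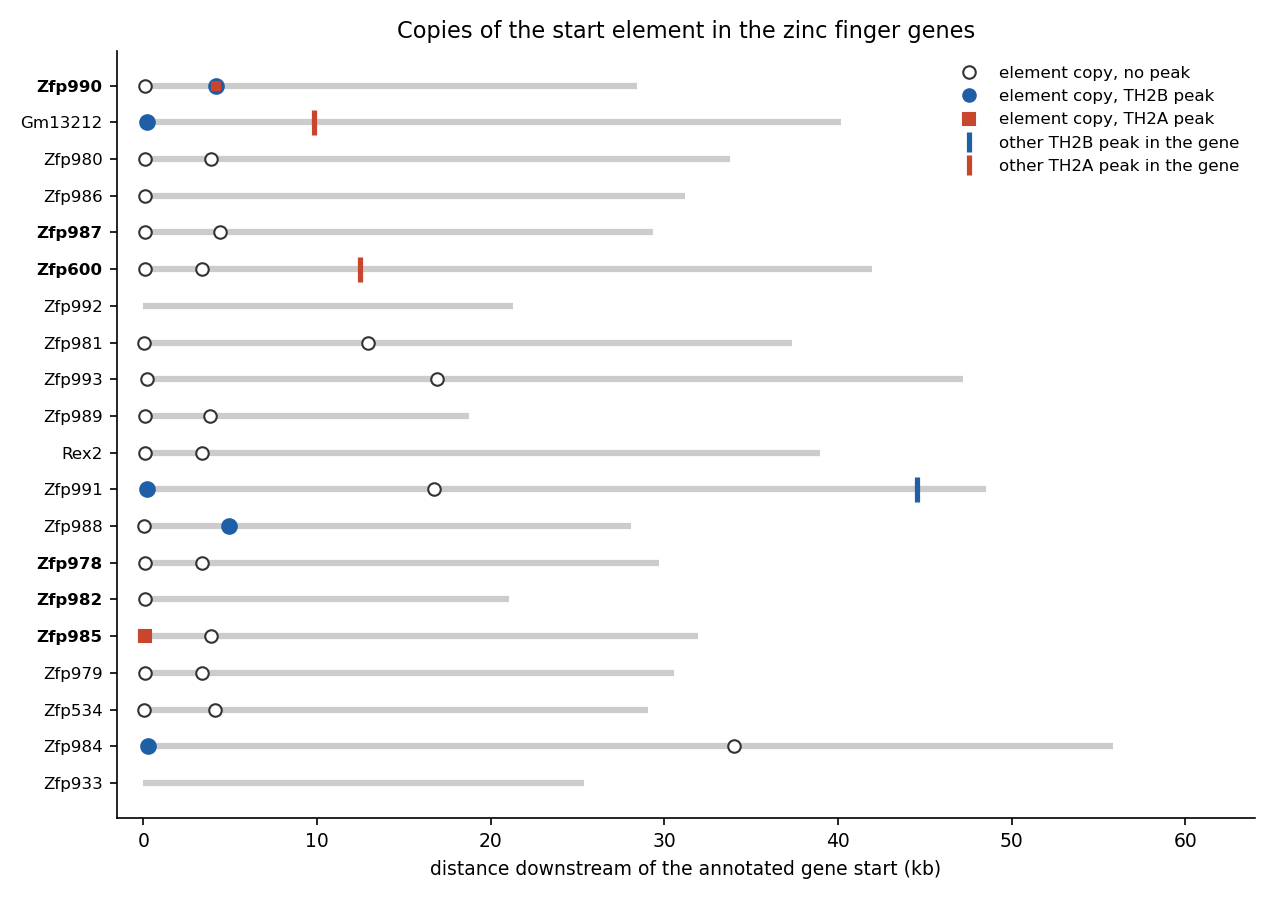
Copies of the start element along the 20 zinc finger genes of the window, by distance in kb downstream of the annotated start (grey bars, gene length, and bold names, listed genes). Open circles are copies with no peak, blue circles those with a TH2B peak, red squares those with a TH2A peak, and vertical ticks are peaks in the gene that lie off the element. The element sits at the start of 18 genes, and 4 of these copies carry a peak.

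Copies with and without a peak overlapped in how alike they were to the shared peak of Zfp990. The 6 other copies that carried a peak were 88.9 to 99.5% identical, with a median of 93.2%, and 45 copies without a peak were 82.1 to 99% identical, with a median of 90.1%. There were 4 copies without a peak that were at least 97% identical to it, and the copy at the start of Zfp986 reached 99%. The length of the start copies was also compared. At 4 genes the copy that spans the start was over 500 bp long (508 to 686 bp), and 3 of these carried a TH2B peak, at Gm13212, Zfp991 and Zfp984. The exception was Zfp993. At the other 14 genes it was 307 to 351 bp long, and 0 carried a TH2B peak and 1, at Zfp985, a TH2A peak. Over all 53 copies, 6 were over 500 bp long, and 3 of these held no peak, while the other 3 TH2B peaks of the element lay on copies of 342 to 349 bp. This limit of 500 bp was chosen after the values were seen. Each copy was drawn as the merged span of its matches to the peaks on the element, a peak's match to itself included. The length of a copy therefore depends in part on the peaks, and no link between length and peaks can be read from these counts.

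**Figure D4:**
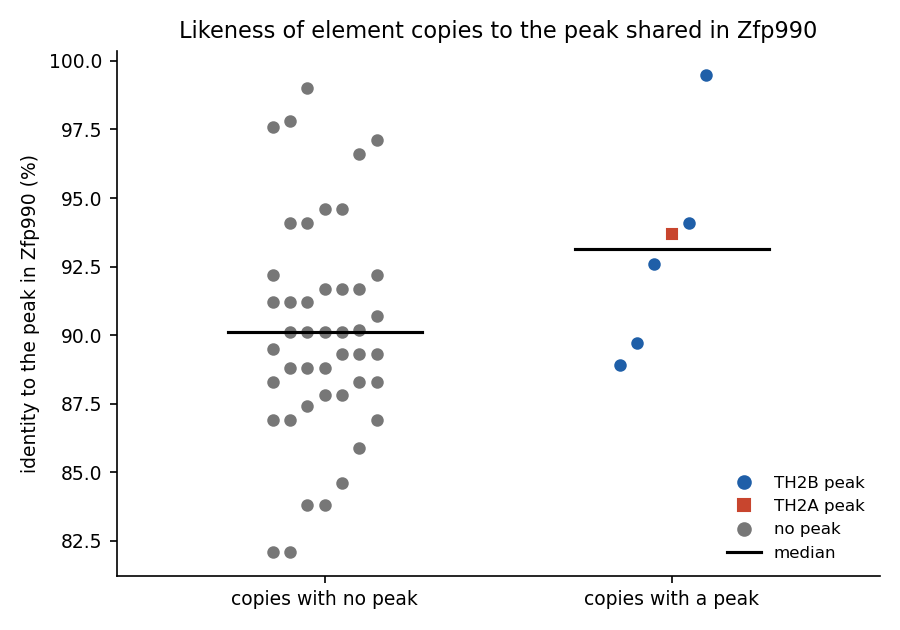
Percent identity of each copy of the start element in the window to the peak shared in Zfp990, for 45 copies with no peak (grey) and 6 copies with a TH2B peak (blue circles) or a TH2A peak (red square), with the median as a line. The ranges overlap, from 82.1 to 99% without a peak and from 88.9 to 99.5% with one.

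Some other groups followed the layout of the duplicated genes in their own way. TH2B peaks 6, 10 and 15 formed a group with 6 places in the window and 469 to 543 copies in the genome, and they lay 5814 bp past Zfp600, 5677 bp past Rex2 and 7909 bp past Zfp978. TH2B peak 7 was of another sequence that lay next to it, and was found 6035 bp past Zfp981. Both sequences stood together at 6 places, behind Zfp600, Rex2, Zfp978, Zfp980 and Zfp981 at 5529 to 8318 bp past the end of the gene and behind Zfp993 at 69030 to 69794 bp. A TH2B peak lay at 4 of these 6 places, all but those behind Zfp980 and Zfp993, and a TH2A peak at 0. The sequences were picked out by the peaks themselves, so this too is a description. TH2A peaks 11 and 17 formed a group with 10 places in the window, 2148 bp past Zfp988 and 4908 bp past Zfp982 in their case, and the other 8 places had no peak. The copies behind Zfp990, Gm13212, Zfp985, Zfp979 and Zfp984 lay 1860 to 1947 bp past the end of the gene. TH2A peak 16 lay on a sequence with 41 places in the window, inside 18 zinc finger genes among them, and was the only peak on any of the 41. TH2A peak 7, in Zfp600, lay on a sequence with 8 places, and copies of it inside Zfp978, Zfp979, Zfp980 and Zfp991 had no peak. TH2A peaks 1, 4, 5 and 13 and TH2B peak 13 were linked into 1 group with 28 places in the window, of which 23 held no peak. The 28 places are not copies of 1 sequence, since each of these peaks had only 3 to 9 copies in the window. TH2A peaks 1 and 13 had 850 and 2309 copies in the genome. Bases that the reference marks as repeats made up 72.9 to 100% of each peak of this group.

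In base composition the window's TH2B peaks stood below the rest of their list, while its TH2A peaks did not. Median GC content was 54.5% (46.5 to 63.2%) for the 19 TH2B peaks and 59.8% for 1121 TH2B peaks on other assembled sequence, and 48% (42.5 to 55.2%) for the TH2A peaks, against 48.5% for 165 others. The median ratio of observed to expected CpG was 0.185 in the window and 0.49 elsewhere for TH2B, and 0.153 and 0.125 for TH2A. TH2B peak 9, 30002 bp before Zfp989, had the highest values of the window, with 63.2% GC and a ratio of 0.753. Bases that the reference marks as repeats made up a median of 13% of a TH2B peak and 3.95% of a TH2A peak in the window, and 4.32 and 25.7% elsewhere. Widths were 200 to 583 bp with a median of 240 bp for TH2B and 200 to 345 bp with a median of 214 bp for TH2A.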

How the data were processed

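Mononucleosomal DNA of TH2B ChIP, TH2A ChIP and Input from caudal sperm was sequenced by the study. The authors trimmed the reads, aligned them to mm10 with BWA and removed unaligned reads with SAMtools. They called peaks with MACS2 2.1.3 with Input as control and a p-value cutoff of 0.05. The authors deposited 1 list per variant, whose values are positions and widths in bp (1-based, both ends included) with no score or other unit. Input was used only in that calling. Samples were grouped by the titles in the labels.

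Positions were joined to GRCm38.p6 sequence and GENCODE M21, with RefSeq models as an alternative, in Python 3.11 with numpy 2.4.6, scipy 1.17.1, Biopython 1.88 and matplotlib 3.10.9. Copies were sought with BLAST 2.17.0 (word sizes 16 and 48). The reference strain is C57BL/6J, not the strain of the study. Overlap needed 1 bp. Distances to a TSS or a gene start ran from centres, and distances to a gene body or to another peak ran between the nearest edges. With 1 library per variant no test was made. Wilson intervals at 95%, and limits of 3 counts where a count was 0, cover counting error only. Functions were tested on simulated data. Every listed gene, every gene a peak overlaps and the gene of its nearest TSS may be named, with peaks that overlap between lists, lie nearest a listed gene, are widest or lack a near-identical copy. Zinc finger genes that hold start element copies, peaks that share a sequence, genes whose transcripts match a peak and other coding genes named were chosen after their values were seen. The members and lists were chosen with earlier results of these data known. Alternatives covered the window, merging, overlap, TSSs, gene models and identity. Settings that need peak scores were not tried. The sequence of 1 stretch shared by both lists, and what it matches, is not reported here.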

Additional observations from a re-analysis of the deposited data

How the results depend on the processing

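No paired analysis was possible because each variant has 1 pooled library, and no replicate could be left out for the same reason. Counts of peaks in the window stayed within 1.5 times of the reported ones under all 3 alternatives tried for each list. A TH2B peak counted as overlapping when a TH2A peak lay up to 1000 bp away gave 5 peaks in place of 3. With protein-coding TSSs only, 4 TH2B and 3 TH2A peaks in place of 12 and 11 lay within 5 kb, and within 1 kb of any TSS 4 TH2A peaks did. At 99% identity 8 TH2B and 4 TH2A peaks in place of 14 and 9 had a copy, and at 90% identity 18 TH2B and 17 TH2A peaks did. Counting listed genes with a peak within 20 kb gave 3 for TH2B in place of 1. RefSeq gene models were an alternative chosen after the data were seen. Their span of Zfp978 takes in Zfp991 and Zfp988, and their span of Zfp982 takes in TH2A peak 16. They put 4 TH2B and 5 TH2A peaks inside a listed gene in place of 1 and 3. They gave 2 listed genes with a TH2B peak in or within 5 kb in place of 1. For each of these the setting itself admits or removes peaks. Depth behind each peak is unknown, and 14.4% of the window is unsequenced in the reference, so peaks there could not be listed.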
